A study of Mus musculus with 2 samples.

Results

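This account concerns the genes of fibroblast growth factor (FGF) signalling in the mandibular prominence of the mouse embryo, the facial swelling that forms the lower jaw and part of the tongue. The genes were chosen by name: 38 symbols of FGF ligands, receptors, docking proteins, feedback inhibitors and Etv targets, each of which was present in the deposited tables among 30723 gene symbols. The first library held RNA of mandibular prominences from 10 pooled embryos with the genotype Kif3a f/f ; Wnt1-Cre, in which the floxed gene of the kinesin motor subunit Kif3a is deleted by Cre recombinase driven from the Wnt1 promoter, which marks the neural crest lineage. The second held RNA of 10 pooled embryos labelled control, for which the labels name no alleles. Both pools are on a mixed (CD1) background and labelled E11.5, but the names of the tables read e11 for the mutant and e11.5 for the control and show that each was sequenced in a run of its own. Genotype, run and any difference in stage therefore cannot be told apart. With 1 library per group no test between the groups was possible, and all differences lack a replicate check.

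FGF ligands act with heparan sulfate on receptor tyrosine kinases. The docking protein Frs2 links the active receptor to the RAS-ERK cascade, which turns on genes of the Etv factors and of inhibitors such as Dusp6 and the Sprouty and Spred proteins, so that both kinds of gene are used as readouts of FGF activity. In the jaw primordium the oral epithelium makes Fgf8 and Fgf9, and the mesenchyme below, which is largely of neural crest origin, expresses the receptors and responds with transcription factors such as Barx1, Lhx6 and Lhx8. In bulk tissue fewer cells of a type and less RNA per cell cannot be told apart.

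Among the genes with enough signal to compare, Fgf13 was the lowest in the mutant relative to control and Fgf8 the highest. For Fgf13 and for Fgf18, the low ligand with the widest FPKM gap, the 250 bases before the transcription start are shown as RefSeq sequence of GRCm38.p6, 5′ to 3′, with CpG dinucleotides in capitals. Fgf13 is shown at the starts of its 2 transcripts with measurable levels. The first region, chrX:59134437-59134686 on the minus strand, precedes the 2494-base transcript. The second, chrX:59585573-59585822 on the minus strand, precedes the 673-base transcript, whose deposited start lies 3 bases away from the RefSeq start. The third, chr11:33147401-33147650 on the minus strand, precedes Fgf18.
Fgf13 before the 2494-base transcript: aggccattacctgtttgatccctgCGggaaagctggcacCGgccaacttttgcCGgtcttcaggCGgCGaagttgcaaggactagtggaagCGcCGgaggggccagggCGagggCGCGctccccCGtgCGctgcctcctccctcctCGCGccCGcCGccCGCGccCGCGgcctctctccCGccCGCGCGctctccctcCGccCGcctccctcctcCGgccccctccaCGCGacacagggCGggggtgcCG
Fgf13 before the 673-base transcript: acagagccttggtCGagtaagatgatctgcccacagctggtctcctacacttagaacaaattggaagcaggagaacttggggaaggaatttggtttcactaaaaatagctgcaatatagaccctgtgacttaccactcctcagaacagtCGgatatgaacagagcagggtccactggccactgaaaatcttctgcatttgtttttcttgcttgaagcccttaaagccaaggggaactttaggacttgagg
Fgf18: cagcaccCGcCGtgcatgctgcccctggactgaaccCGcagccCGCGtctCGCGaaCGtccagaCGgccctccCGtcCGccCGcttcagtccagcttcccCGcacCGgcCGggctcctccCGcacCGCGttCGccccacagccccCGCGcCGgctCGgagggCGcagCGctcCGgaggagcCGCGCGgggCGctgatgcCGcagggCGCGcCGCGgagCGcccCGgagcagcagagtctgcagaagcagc
The start that gave most of the Fgf13 RNA lies in CpG-rich sequence, with 31 CpGs, while the start of the 673-base transcript has 2. Fgf18 has 37 CpGs. The 38 promoters of FGF genes in the table had a median of 18 CpGs (quartiles 7.25 and 24), and all 32851 promoters had a median of 6, so CpG-rich starts were common among FGF genes. Also, 3 short motifs were searched on both strands of the same windows, in the 38 promoters of the 29 FGF genes that matched the table. The GLI motif GACCACCCA was in 0 of the 38, against 0.225% of all promoters. The ETS motif CCGGAAGT, of the family to which Etv factors belong, was in 2 of the 38, those of Fgfrl1 and Frs2, against 2.88% of all promoters. TATAAA was in 1, an Etv1 promoter, against 12.4% of all. These matches describe letters in a window and say nothing about binding.

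Levels are in FPKM, fragments scaled to transcript length and to library size, and a gene's level is the sum of its transcripts. For forms that share sequence, FPKM depends on how shared fragments were divided between them. No interval was made for single forms, and switches between forms were not tested. Of the 38 genes, 24 had a mean of 1 FPKM or more over both libraries, the minimum set for a comparison, and 14 lay below it. The most abundant were Fgfr1, Dusp6, Flrt3 and Fgfr2, and the most abundant ligand was Fgf8.

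**Figure D1:**
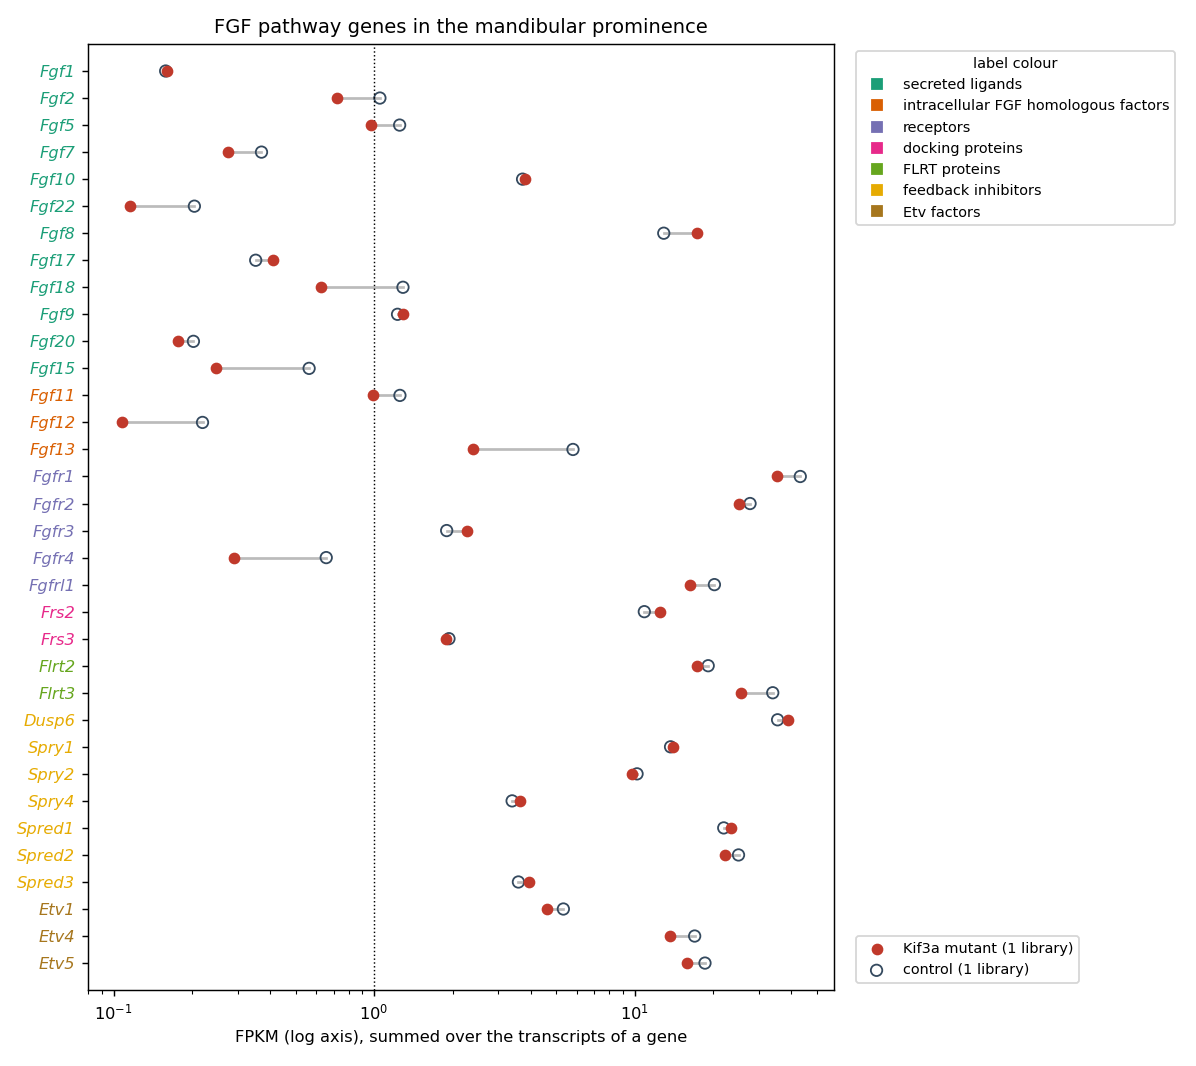
FPKM (log axis) of the 34 FGF genes with a mean of at least 0.1 FPKM; filled points are the Kif3a mutant library, open points the control library, and the dotted line marks 1 FPKM. Most pairs of points nearly touch, and Fgf13, Fgf18, Fgf15, Fgf12 and Fgfr4 are the pairs that stand widest apart, all with the mutant point on the left.

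Differences are given as the log2 ratio, log2((mutant FPKM + 1) / (control FPKM + 1)), which understates differences of genes with low values. The median of all 12259 genes over the minimum was -0.13, so a gene is placed above or below this median gene. In parentheses after an FPKM ratio stands its 95% interval, the exact Clopper-Pearson interval on approximate fragment numbers, which covers counting error only and not the variation between pools. Of the 24 genes compared, 1 was at least 2-fold lower in the mutant, against 1.36% of all genes, and 0 were at least 2-fold higher, against 0.767%. At 1.5-fold the counts were again 1 lower, against 5.57% of all genes, and 0 higher, against 2.76%. The median over the 24 was -0.10, 12 lay below and 12 above the median gene, and 15 lay within 0.2 of it, as did 53.9% of all genes. Log2 ratios below 0 were found in 14 of the 24, against 67.9% of all genes. As a group the FGF genes were thus spread around the median gene.

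**Figure D2:**
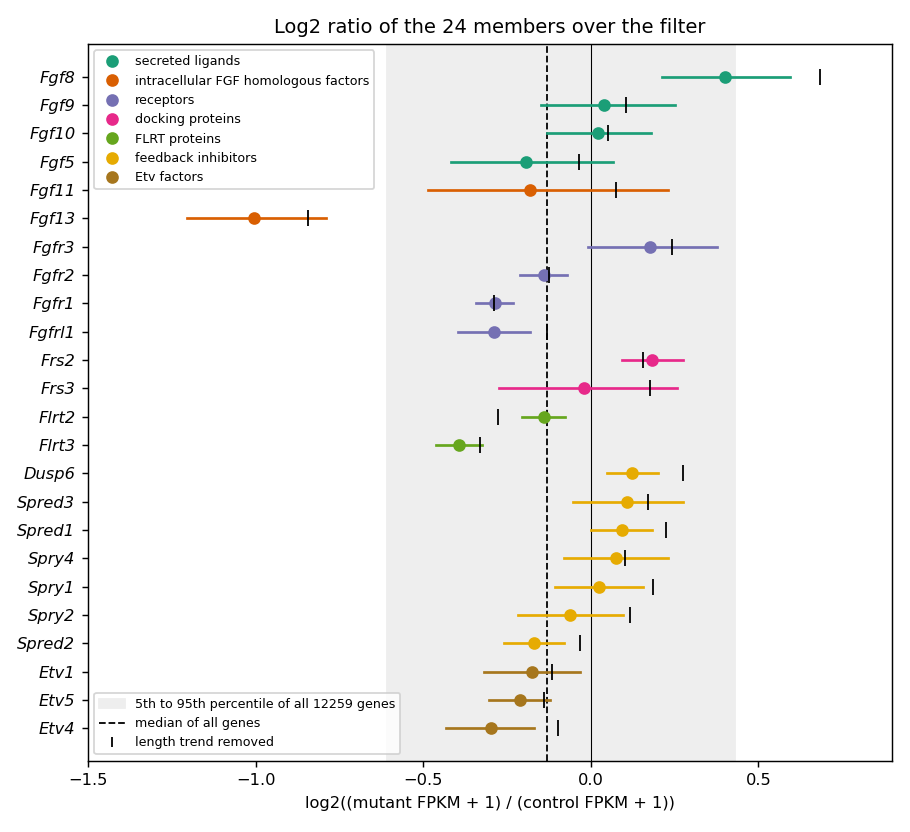
Log2 ratio (mutant over control) of the 24 FGF genes over 1 FPKM, coloured by role; bars are 95% counting intervals, black ticks the values with the transcript length trend removed, the grey band the 5th to 95th percentile of all genes and the dashed line their median of -0.13. Fgf13 is the only gene outside the grey band, at -1.004, and Fgf8, at 0.40, lies near its upper edge. The black ticks are centred near 0 and not on the dashed line.

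Fgf8, the epithelial ligand that directs growth and patterning of the first arch, was the highest of the 24 genes. It stood at 17.4 FPKM in the mutant library and 12.9 FPKM in the control library. The mutant value was 1.35 times the control value (1.17 to 1.55), on about 496 and 346 fragments, and the log2 ratio of 0.40 was at percentile 94.3 of all genes. The gene lies on chromosome 19 from 45736798 to 45742884. Of its 4 measured transcripts, 3 were higher in the mutant and the one of 1040 bases was not, at 4.55 FPKM in the mutant and 4.66 in the control. The 1007-base form, at 6.02 FPKM in the mutant and 3.88 in the control, was the most abundant in the mutant. Fgf8 was also above the running median for short transcripts. Relative to the median gene its log2 ratio was 0.53, and with the length trend described further on removed it was 0.68.

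Markers of the oral epithelium, the tissue that makes Fgf8, were mostly above the median gene too. Of 14 such genes, 11 lay above the median gene, with a median log2 ratio of 0.33, and 0 were at 0 in either library. Their summed level was 241 FPKM in the mutant and 212 FPKM in the control, 1.14 times as much in the mutant. Krt18 and Trp63 had log2 ratios of 0.48 and 0.41, close to that of Fgf8, whereas Krt5 and Krt15, keratins of basal cells, had -0.72 and -1.13. The part of epithelial share in the Fgf8 value was not tested. Fgf9, the other epithelial ligand over the minimum, stood at 1.29 FPKM in the mutant and 1.23 FPKM in the control, a ratio of 1.05 (0.823 to 1.34). Its interval includes 1, on about 143 and 129 fragments.

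The mesenchymal ligand Fgf10, which signals to epithelium through Fgfr2, differed little. It stood at 3.79 FPKM in the mutant and 3.71 in the control, a ratio of 1.02 (0.890 to 1.17). Fgf5 stood at 0.969 and 1.25 FPKM in mutant and control, a ratio of 0.773 (0.549 to 1.08) that counting error does not separate from 1. Fgf5 had 2 transcripts, and the one of 2397 bases took 38.3% of its FPKM in the mutant and almost none in the control.

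Below the minimum, FGF genes mostly had lower values in the mutant, in a range of levels chosen after values had been seen. Of the 10 FGF genes with a mean between 0.1 and 1 FPKM, 8 were lower in the mutant, against 54.1% of all 3734 genes at that level. Values at or under 50% of control were found for 4, Fgf12, Fgf15, Fgf18 and Fgfr4, against 17.2% of all. These 10 were Fgf1, Fgf2, Fgf7, Fgf12, Fgf15, Fgf17, Fgf18, Fgf20, Fgf22 and the receptor gene Fgfr4. Fgf18, a ligand of skeletal mesenchyme, had the largest FPKM gap of them, at 0.626 FPKM in the mutant and 1.29 in the control. Its ratio was 0.485 (0.271 to 0.901) on about 19 and 35 fragments, and it stood just under the minimum. Fgf15, the mouse counterpart of the human hormone-like ligand FGF19, stood at 0.247 and 0.563 FPKM in mutant and control, a ratio of 0.438 (0.221 to 0.921). Both of these intervals stay below 1, but they rest on few fragments. Fgf15 also shares exonic sequence with 2 genes on the opposite strand, whose reads cannot be told apart without strand information. The same limit, with 1 opposite-strand gene each, holds for Fgf2, Fgf10, Fgf14, Fgf20, Fgf22, Fgfr1, Fgfr3, Frs3, Spry1 and Spred3.

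The other low ligands could not be separated from equal levels at this depth. Fgf2 stood at 0.718 FPKM in the mutant and 1.05 in the control, a ratio of 0.682 (0.297 to 1.56), and its exons overlap those of the opposite-strand gene Nudt6. Fgf7, the keratinocyte growth factor, had a ratio of 0.744 (0.382 to 1.47). Fgf17, of the same subfamily as Fgf8 and Fgf18, had 1.17 (0.553 to 2.56), and Fgf1, which can bind all FGF receptors, had 1.01 (0.479 to 2.32). Fgf20 and Fgf22 rested on 8 or fewer fragments in each library. Fgf4 and Fgf16 were listed at 0 in both libraries, and Fgf3 at 0 in the mutant and at 0.0370 FPKM in the control, about 1 fragment. Fgf3, Fgf4 and Fgf15 are neighbours on chromosome 7, with gaps of 18.0 and 31.3 kb, and of the 3 only Fgf15 was above 0.1 FPKM in either library.

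The lowest of all FGF genes over the minimum was Fgf13. It belongs to the FGF homologous factors Fgf11 to Fgf14, which stay inside the cell, bind voltage-gated sodium channels and microtubules and are best known from neurons. It stood at 2.39 FPKM in the mutant and 5.80 FPKM in the control. The ratio was 0.412 (0.337 to 0.505), on about 146 and 298 fragments, and the log2 ratio of -1.004 was at percentile 1.34 of all genes. This value lies on the edge of the 2-fold rule, and relative to the median gene it was -0.87. The 2-fold call was lost under most other settings, and a pseudocount of 5 also ended the 1.5-fold call, but Fgf13 was below the median gene in all settings that included it. The gene lies on chromosome X between 59062150 and 59585569. Of its 3 listed transcripts, the one of 2094 bases was near 0 in both libraries and the other two were lower in the mutant. The 2494-base form stood at 2.13 FPKM in the mutant and 4.95 in the control, and the 673-base form at 0.264 and 0.847 FPKM in mutant and control. These forms start at the CpG-rich and the CpG-poor sequence printed above, and both differed in the same direction, the shorter one on only about 5 and 13 fragments.

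Its relatives were low. Fgf11 stood at 0.989 and 1.26 FPKM in mutant and control, a ratio of 0.788 (0.487 to 1.31). Fgf12 was at 0.108 and 0.219 FPKM in mutant and control, a ratio of 0.491 (0.184 to 1.33), and Fgf14 at 0.0565 and 0.0646. Summed over the 4 genes, the level was 3.54 FPKM in the mutant and 7.34 FPKM in the control, and Fgf13 made up most of both sums. Neuronal and glial markers, of which 5 of 7 passed the minimum, were spread on both sides of the median gene: Nefl had a log2 ratio of -0.56, Sox10 had -0.56 below the minimum, Tubb3 had -0.44 and Isl1 had 0.70. Their summed level was 22.7 FPKM in the mutant and 22.9 FPKM in the control, and 0 of the 7 were at 0. These near-equal sums hold opposite differences, with Isl1 at 9.62 and 5.53 FPKM in mutant and control and Tubb3 at 6.29 and 8.92. The part of neurons and glia in the Fgf13 value was not tested.

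Among the receptors, Fgfr1 and Fgfr2 carried most of the FPKM. Fgfr1, the main receptor of the mesenchyme, stood at 35.3 FPKM in the mutant and 43.2 in the control, a ratio of 0.816 (0.784 to 0.849) and a log2 ratio of -0.29 at percentile 26.8. Its forms of 5008 and 5002 bases kept their shares, with 67.0% and 28.3% of the gene's FPKM in the mutant and 67.8% and 29.2% in the control. Fgfrl1, a receptor-like protein without a kinase domain, stood at 16.4 and 20.2 FPKM in mutant and control, a ratio of 0.810 (0.748 to 0.876). Its 2656-base form took 83.9% of the gene in the mutant and 94.4% in the control, and its 2383-base form, at 2.64 FPKM in the mutant and 1.13 in the control, was the higher one in the mutant. Fgfr3 went the other way, at 2.28 FPKM in the mutant and 1.90 in the control, a ratio of 1.20 (0.993 to 1.46). Fgfr3 was the only receptor above the median gene, which Fgfr2 also passed by at most 0.02 under some other settings, and the counting interval of Fgfr3 reaches just below 1. Its form of 4020 bases, the most abundant only on the mean of both libraries, stood at 0.871 FPKM in the mutant and 0.487 in the control. Its 3960-base form stood at 0.000175 FPKM in the mutant and 0.946 in the control, and its 4219-base form at 0.972 FPKM in the mutant and 0.00648 in the control.

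Fgfr2, whose epithelial and mesenchymal splice forms bind different ligands, was near the median gene as a whole, while the FPKM assigned to some forms differed. It stood at 25.1 FPKM in the mutant and 27.7 in the control, a ratio of 0.904 (0.859 to 0.951). Of its 12 listed transcripts, the one of 4847 bases, the most abundant in both libraries, stood at 6.56 FPKM in the mutant and 10.0 in the control, or 26.2% and 36.2% of the gene. The one of 5192 bases, with the same outer ends on chromosome 7 at 130162451 and 130266808, stood at 4.50 FPKM in the mutant and 1.34 in the control, or 18.0% and 4.84% of the gene. The forms of 3913 and 4180 bases stood at 5.86 and 5.88 FPKM in the mutant and at 6.89 and 7.55 in the control. The tables give no exon structure, and none of these 4 forms matched a GENCODE transcript in both ends and length, so they are not assigned to the epithelial or mesenchymal splice form.

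Fgfr4, a receptor of embryonic muscle precursors, was the only receptor below the minimum. It stood at 0.289 FPKM in the mutant and 0.655 in the control, a ratio of 0.442 (0.255 to 0.736) on about 22 and 53 fragments. Skeletal muscle markers were lower too. All 5 of the 7 that passed the minimum lay below the median gene, 4 of them at least 2-fold lower, against 1.36% of all genes. The summed level of the 7, including those below the minimum, was 11.9 FPKM in the mutant and 40.1 FPKM in the control. None of the 7 was at 0, Myog stood at 0.488 and 5.78 FPKM in mutant and control, and the part of muscle precursors in the Fgfr4 value was not tested.

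**Figure D3:**
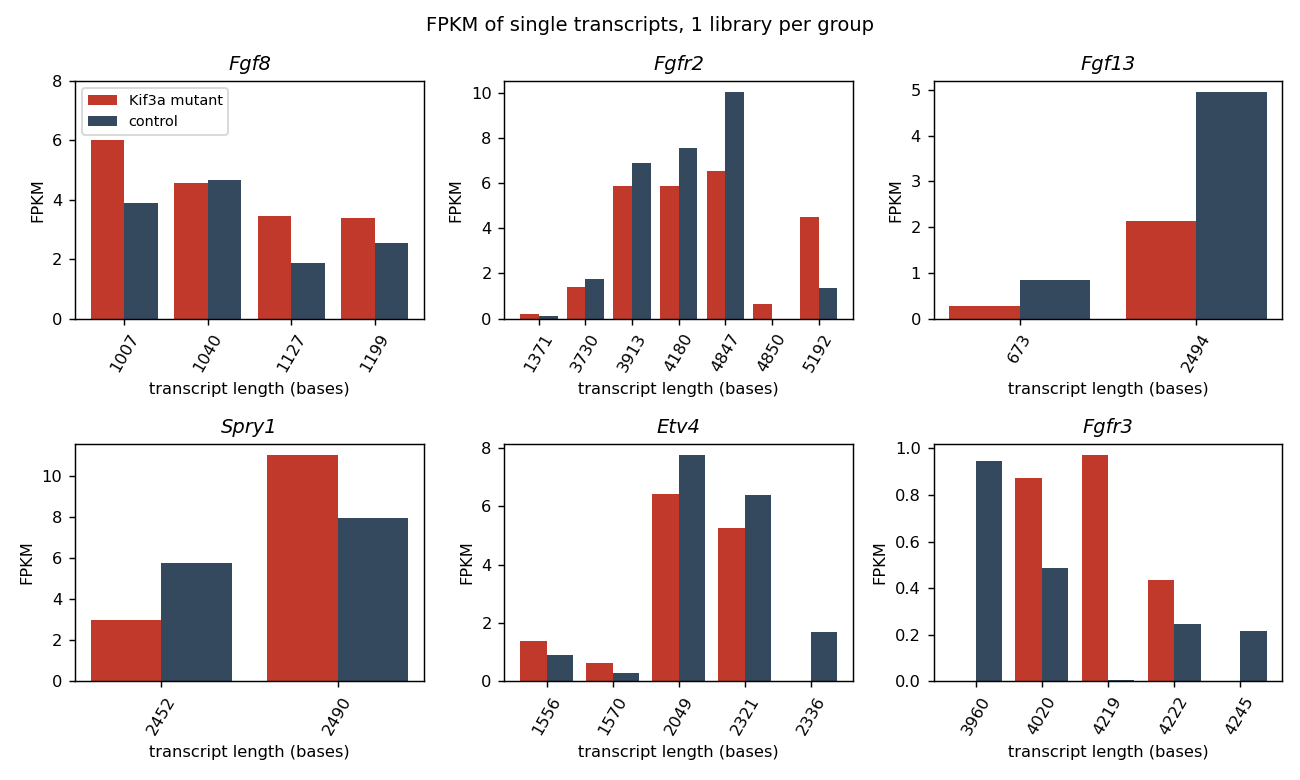
FPKM of single transcripts with a mean of at least 0.1 FPKM for 6 FGF genes, in the Kif3a mutant (left bar) and control (right bar) library; transcripts are named by length. Both Fgf13 forms are lower in the mutant, the 5192-base Fgfr2 form is higher in the mutant at 4.50 against 1.34 FPKM, and Fgfr3 forms of similar length are high in one library and near 0 in the other.

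The docking proteins and the FLRT proteins lay on opposite sides of the median gene, except that Flrt2 passed it by up to 0.02 under some other settings. Frs2, the main docking protein of FGF receptors, stood at 12.5 FPKM in the mutant and 10.9 in the control, a ratio of 1.15 (1.07 to 1.23) and a log2 ratio of 0.18. Its transcript of 5684 bases is long. Relative to the median gene the Frs2 value was 0.31, and with the length trend removed it was 0.15. A second form of 2124 bases stood at 1.05 FPKM in the mutant and 0.396 in the control. Frs3 stood at 1.89 and 1.94 FPKM in mutant and control. Flrt3, a membrane protein that binds FGF receptors and promotes their signalling, stood at 25.6 FPKM in the mutant and 33.9 in the control. With a ratio of 0.754 (0.718 to 0.792) and a log2 ratio of -0.39, at percentile 15.3, Flrt3 was second to Fgf13 among the genes below the median. The difference was assigned to its 3984-base form, at 22.2 FPKM in the mutant and 30.5 in the control, while the 4537-base form stood at 3.41 and 3.38 FPKM in mutant and control. Flrt2, its relative in the mesenchyme, stood at 17.3 and 19.2 FPKM in mutant and control, a log2 ratio of -0.14. Relative to the median gene the Flrt2 value was -0.01, and with the length trend removed it was -0.28.

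Feedback inhibitors were close to equal in both libraries, and 6 of the 7 lay above the median gene. Dusp6, the phosphatase of ERK and the most abundant of them, stood at 38.6 FPKM in the mutant and 35.4 FPKM in the control, a ratio of 1.09 (1.04 to 1.15) and a log2 ratio of 0.12 at percentile 80.4. Spred1, which restrains RAS activation, stood at 23.5 and 22.0 FPKM in mutant and control, and Spred3 at 3.94 and 3.58 FPKM. The 2997-base form gave 97.2% of Spred1 in the mutant and 98.3% in the control, the rest coming from one of 1627 bases. Spred2 was the one below the median gene, at 22.2 FPKM in the mutant and 25.05 in the control, a ratio of 0.885 (0.829 to 0.944). Of its 3 listed transcripts, the most abundant one, of 3245 bases, lies between 20020782 and 20024026 on chromosome 11, at the gene's 3′ end, and holds 53.7% of the gene's FPKM in the mutant and 58.3% in the control. The Sprouty genes, whose products block signalling between receptor and ERK, had ratios of 1.02 (0.924 to 1.12) for Spry1, 0.954 (0.846 to 1.08) for Spry2 and 1.07 (0.931 to 1.23) for Spry4. Spry1 stood at 14.0 and 13.7 FPKM in mutant and control, Spry2 at 9.74 and 10.2, and Spry4 at 3.62 and 3.39. All 3 intervals include 1.

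Spry1 differed in the FPKM assigned to its forms rather than in its sum, and whether the forms themselves differed was not tested. The form of 2490 bases stood at 11.0 FPKM in the mutant and 7.96 FPKM in the control, and the form of 2452 bases at 2.99 FPKM in the mutant and 5.77 in the control. The forms have nearly the same ends on chromosome 3, with starts at 37639950 and 37639947 and a shared end at 37644599. Fgf2 lies 235 kb before Spry1 on the same chromosome and had a log2 ratio of -0.26 below the minimum.

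The Etv factors, the transcription factors most often read as FGF targets, all lay below the median gene, though not far below it. Etv4 stood at 13.6 FPKM in the mutant and 17.0 in the control, a ratio of 0.802 (0.727 to 0.884) and a log2 ratio of -0.30 at percentile 25.2. Its forms of 2049 and 2321 bases stood at 6.42 and 5.24 FPKM in the mutant and at 7.75 and 6.39 in the control. The 2336-base form was near 0 in the mutant and at 1.69 FPKM in the control, and the 1556-base form stood at 1.36 and 0.884 FPKM in mutant and control. Etv5 stood at 15.9 and 18.6 FPKM in mutant and control, a ratio of 0.856 (0.800 to 0.915). Etv1 stood at 4.60 and 5.33 FPKM in mutant and control, a ratio of 0.863 (0.764 to 0.975). The median of the 3 was -0.21, at 0.08 below the median gene, and the median of the 7 feedback inhibitors was 0.08, at 0.21 above it. The medians of both kinds of target thus stood on different sides of the median gene. The middle 90% of all genes had log2 ratios from -0.61 to 0.43, a range of single genes that does not measure the spread of list medians. Single genes were less divided: relative to the median gene the feedback inhibitor Spred2 was at -0.04 and Etv1 at -0.05. The counting intervals were compared with 1 and not with the median gene. The difference between Etv factors and feedback inhibitors was not tested.

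**Figure D4:**
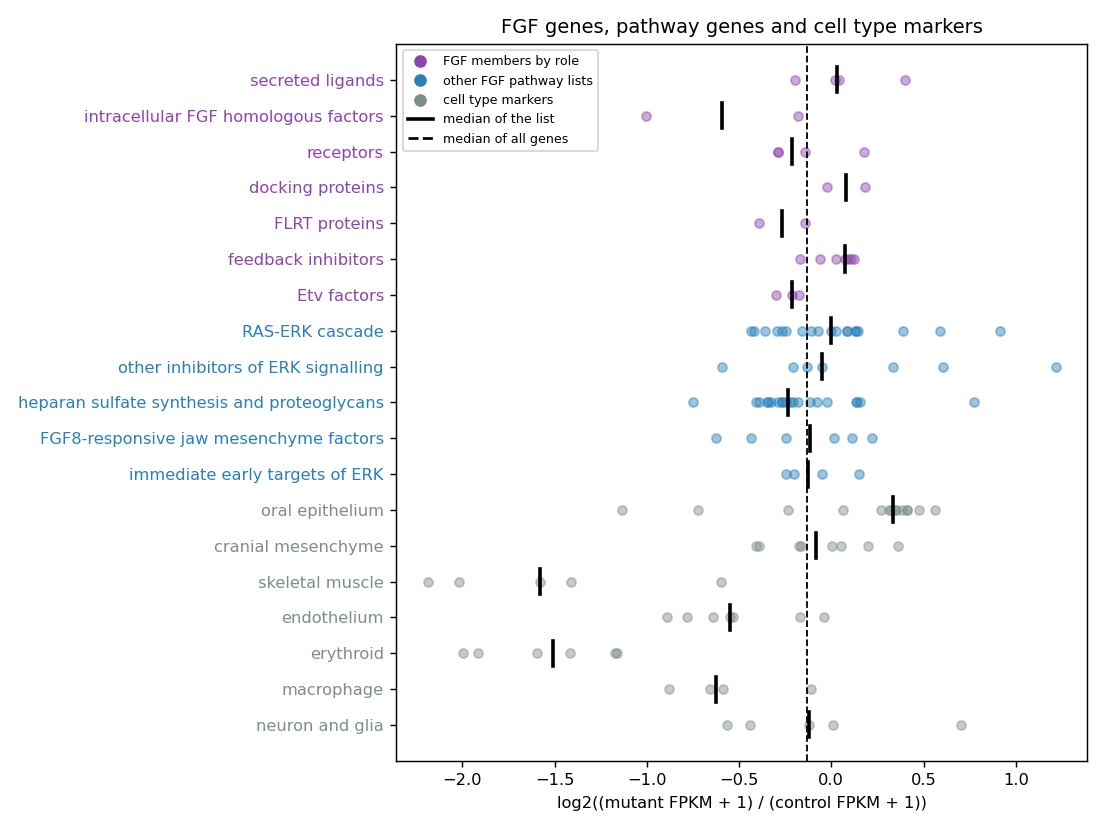
Log2 ratio of single genes over 1 FPKM (points) in FGF genes by role, other FGF pathway lists and cell type markers, with the median of each list (bar) and the median of all genes (dashed line, -0.13). Most FGF roles and pathway lists lie around the dashed line, the 2 homologous factors lie to its left, and skeletal muscle and erythroid markers lie far to its left and most oral epithelium markers to its right.

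The rest of the pathway was spread on both sides of the median gene. Of 20 genes of the RAS-ERK cascade, 19 were in the tables and over the minimum, and their median was 0.00. At 2-fold, 0 were higher or lower, against 0.767% and 1.36% of all genes. At 1.5-fold, 2 were higher and 0 lower, against 2.76% and 5.57%. The kinase gene Braf stood at 13.0 FPKM in the mutant and 6.42 in the control, with a log2 ratio of 0.92. Nf1, which switches RAS off, had 0.59. The transcripts of both are long, 9728 and 11847 bases. Relative to the median gene Braf and Nf1 had 1.05 and 0.72, and without the length trend 0.60 and 0.28. The running median has the same value of 0.31 at both lengths, and whether a length effect remains was not tested. The kinase gene Mapk3 stood at 27.3 FPKM in the mutant and 37.2 in the control, and the kinase gene Map2k2 at 40.7 and 54.7 FPKM in mutant and control. Relative to the median gene Mapk3 and Map2k2 had -0.30 and -0.29, and without the length trend -0.20 and -0.26.

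Of 10 other inhibitors of ERK signalling, 7 passed the minimum, with a median of -0.05. Of these, 1 was 2-fold higher and 0 lower, against 0.767% and 1.36% of all genes. At 1.5-fold, 2 were higher and 1 lower, against 2.76% and 5.57%. The ubiquitin ligase gene Cbl, which removes active receptors, stood at 14.0 FPKM in the mutant and 5.47 in the control, a ratio of 2.57 (2.36 to 2.80). Il17rd, also called Sef, an FGF feedback inhibitor at the membrane, stood at 15.1 and 9.58 FPKM in mutant and control, with a log2 ratio of 0.60. Relative to the median gene the Il17rd value was 0.73, and without the length trend it was 0.40. Dusp4, an ERK phosphatase, stood at 5.55 and 4.19 FPKM in mutant and control, and Dusp2 at 1.01 and 2.02. Dusp9, the most abundant of the list, stood at 48.8 and 50.4 FPKM.

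Genes for heparan sulfate synthesis and its core proteins, which FGF ligands need to engage their receptors, had a median log2 ratio of -0.23. Of these 20 genes, 13 lay below the median gene. At 2-fold, 0 were higher or lower, against 0.767% and 1.36% of all genes. At 1.5-fold, 1 was higher and 1 lower, against 2.76% and 5.57%. The syndecan gene Sdc2 stood at 9.68 FPKM in the mutant and 16.9 in the control, a ratio of 0.571 (0.524 to 0.622). Hspg2, the gene of perlecan, had a log2 ratio of 0.77, which was 0.90 relative to the median gene and 0.46 without the length trend. The trend value removed from Hspg2 was 0.31, the same as for Braf and Nf1. Ext2, which builds the heparan sulfate chain, had -0.41, and Sulf2, which trims it, had -0.39. The glypican gene Gpc3, the most abundant, stood at 366 and 428 FPKM in mutant and control. The klotho coreceptors Kl and Klb were both under 0.1 FPKM in either library.

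Jaw mesenchyme factors that respond to FGF8 were measured in 6 genes, with a median of -0.11, 3 below and 3 above the median gene. Gsc stood at 32.9 FPKM in the mutant and 51.2 in the control, a ratio of 0.642 (0.593 to 0.696). It was the one past 1.5-fold, where 5.57% of all genes were 1.5-fold lower. Its transcript is short, and the value was -0.49 relative to the median gene and -0.37 with the length trend removed. Barx1, the most abundant, stood at 122 and 165 FPKM in mutant and control, at -0.30 relative to the median gene and -0.18 without the length trend. Lhx8 had a log2 ratio of 0.22, and Lhx6 stood at 17.2 and 17.0 FPKM in mutant and control. Pitx1 had -0.24 and Pax9 had 0.11. Of 8 early targets of ERK, listed as immediate early, 4 passed the minimum, at log2 ratios of -0.24 to 0.15. At 1.5-fold, 0 were higher or lower, against 2.76% and 5.57% of all genes. Fos, Fosl1, Egr1 and Egr2 were below the minimum, so the list says little about them. Ccnd1, the cyclin gene and the most abundant, stood at 101 FPKM in the mutant and 120 FPKM in the control, and Ier2 had -0.20, Myc -0.05 and Fosl2 0.15.

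Properties of the libraries touch these values. Each library held about 24500000 fragments in the mutant and 24700000 in the control, as approximated from coverage. Kif3a stood at 5.39 FPKM in the mutant and 11.46 in the control, a ratio of 0.471 (0.432 to 0.514), over the whole transcript and in a tissue that also holds cells without Wnt1-Cre. Cranial mesenchyme markers were present in both libraries and lay on both sides of the median gene, with summed levels of 608 FPKM in the mutant and 652 in the control. Endothelial markers summed to 43.0 and 67.6 FPKM in mutant and control, erythroid markers to 5289 and 20287, and macrophage markers to 7.99 and 13.0. Hox genes of later arches summed to 1.24 and 2.43 FPKM. Log2 ratios rose with transcript length: the median was -0.27 for genes under 1500 bases and 0.11 for those of 5000 bases and over, and the black ticks of the ratio plot show each FGF gene with this trend removed. Values with the trend removed are centred near 0, so they compare with values relative to the median gene.

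**Figure D5:**
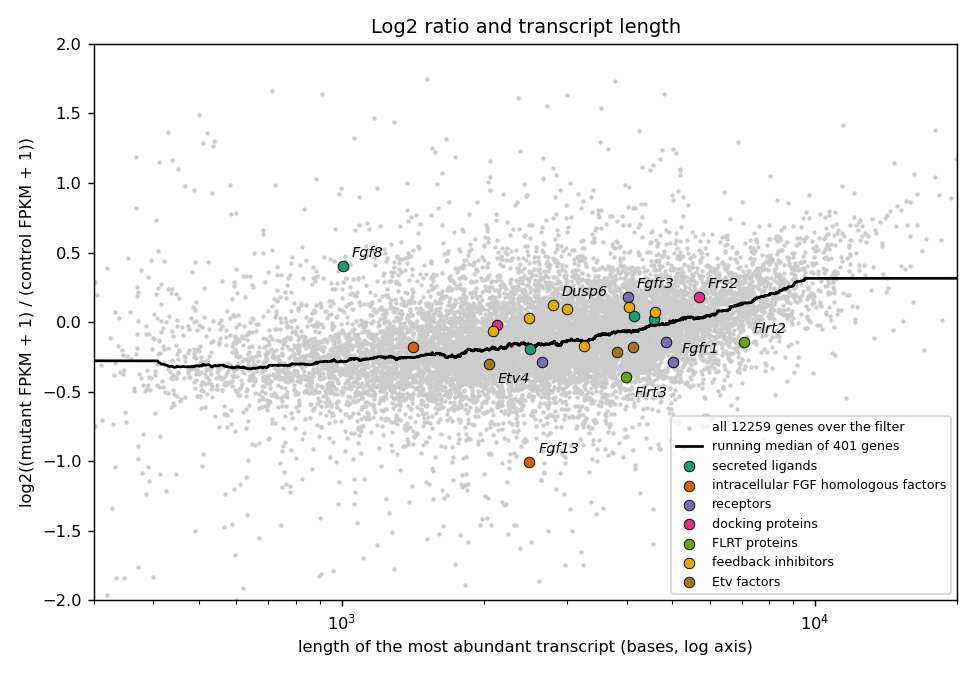
Log2 ratio (mutant over control) against the length of the most abundant transcript (log axis) for all genes over 1 FPKM (grey) and the FGF genes (coloured by role), with the running median over length. Fgf8, a short transcript of 1007 bases, lies well above the running median, while Fgf13 lies well below it and Fgfr1, Flrt2 and Flrt3 lie under it.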

How the data were processed

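RNA of mandibular prominences was sequenced in 2 libraries, 1 per group, each of 10 pooled embryos. For each library the authors deposited a table of 59120 transcripts, in which, per the file headers, each line holds a locus, a length, a coverage signal and FPKM. The naming of the tables gives Cufflinks, and neither its version nor the aligner or strandedness is stated in the labels. The deposited coverage signal served only to approximate fragments, with 153 bases in the mutant and 156 in the control per fragment. The submitters' processing notes name mm9, but 72.1% of 45475 transcripts with a symbol in GENCODE M21 shared a start or end with it on GRCm38, so coordinates are given on GRCm38. Deposited starts count from 0 and were raised by 1. Lines with displaced columns, 65 per library, were left out.

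FPKM was summed per gene symbol, genes with a mean of 1 FPKM or more were compared, and log2 ratios used a pseudocount of 1 FPKM (Python 3.11.15, pandas 2.3.3, scipy 1.17.1). No test between groups and no p-value was computed, since each group is 1 library. The length trend is the running median over 401 genes. It was tried on simulated data with a smooth length bias and a smaller pseudocount, which does not test it on these libraries. All 38 genes are accounted for. Of each other pathway list, up to 4 genes with the largest absolute log2 ratio and the most abundant gene are named, and Lhx6, Pax9 and the klotho genes complete their lists; 1 gene that this rule names is not reported here. Single transcripts are given for genes with more than 1 of a mean of 0.5 FPKM or more, and for Fgf5 and Fgfr3, but not every form of these genes is given. The genes and lists were chosen with earlier results of these data known. The low range of 0.1 to 1 FPKM and the motifs were chosen after values had been seen. Alternatives were other pseudocounts, filters and scalings, removal of the length trend and use of 1 transcript per gene.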

Additional observations from a re-analysis of the deposited data

How the results depend on the processing

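No paired analysis was possible because each group has 1 library, and no replicate could be left out. Under 10 alternatives, 20 of 24 FGF genes kept their side of the median gene wherever they passed the filter, with Fgf8 at 0.41 to 0.68 and Fgf13 at -1.10 to -0.46 relative to it. Fgf5, Fgf11, Fgfr2 and Flrt2 changed side. Of 17 list medians, 13 kept their side; those of the RAS-ERK, FGF8-responsive, immediate early and neuron and glia lists did not. TPM-like scaling moved the median gene to 0.41, and to 0.11 without transcripts under 200 bases.

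The count of FGF genes 2-fold lower was 0 under every alternative but a pseudocount of 0.1 and no filter. At a mean of 5 FPKM or more Fgf13 was not compared. Of all 12259 genes, 167 were 2-fold lower in the main setting, 312 with a pseudocount of 0.1 and 56 with one of 5. The number was 129 centred on the median gene, 137 with 75th percentile scaling and 85 with TPM-like scaling. It was 142 without transcripts under 200 bases, 106 with the length trend removed and 226 with the most abundant transcript. Without a filter it was 179 of 30723, and at a mean of 5 FPKM or more 88 of 8873. The count of FGF genes 1.5-fold lower was 0 with a pseudocount of 5 and with a mean of 5 FPKM or more. The count 1.5-fold higher was 8 with TPM-like scaling, where the median gene itself stood at 0.41. It was 1 without transcripts under 200 bases and 1 with the length trend removed. The share of all genes past 1.5-fold was not counted for these settings. List medians relative to the median gene moved as follows, and the cause was not tested. A pseudocount of 0.1 gave -2.29 for skeletal muscle and -0.80 for macrophage. A pseudocount of 5 gave 0.34 for oral epithelium, -0.83 for skeletal muscle, -1.23 for erythroid and -0.16 for macrophage markers. Without a filter receptors had -0.16. A mean of 5 FPKM or more gave 0.55 for secreted ligands, which is Fgf8 alone, -0.10 for FGF8-responsive factors and 0.27 for neuron and glia. Skeletal muscle had -1.87 with TPM-like scaling and -1.89 without transcripts under 200 bases. With the length trend removed RAS-ERK had -0.0034 and cranial mesenchyme 0.14, and with the most abundant transcript alone receptors had -0.22 and cranial mesenchyme 0.14. Depth limits the genes under 1 FPKM, most of which rest on fewer than 60 fragments in each library.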
